A study of Rattus norvegicus with 10 samples.

Results

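Interferon-stimulated genes are the genes that cells switch on when interferons, the secreted alarm proteins of antiviral defence, reach their surface. They were taken here as a list of 34 gene names, and every row of the deposited table that carried one of these names was kept. Of the 34, 33 stood in the table, each with 1 identifier, among 32623 genes in all. Samd9l was not found under its name. Oas3 lay under the minimum mean of 10 normalized counts over the 10 samples, so 32 of the 34 were tested, among 15597 genes tested in all.

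RNA had been sequenced from the supraoptic nucleus, the paired hypothalamic nucleus of the magnocellular vasopressin and oxytocin neurons, of male Sprague Dawley rats. In each rat an adeno-associated virus carrying a hairpin against Opn3 (shOpn3) had been injected on one side, and one carrying a non-targeting hairpin (shControl) on the other. Tissue was taken 2 weeks later with a 1 mm punch from sections of 100 µm, and each nucleus was extracted by itself, giving 5 samples a group with replicate numbers 1 to 5 in both. All 10 nuclei had therefore received a virus, and no nucleus without virus is among the samples. The labels do not give the serotype or promoter of the viruses, the ages of the rats, or which side received which virus.

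Interferons act through receptors that couple to the JAK kinases. The type I interferons act largely through a complex with the subunits STAT2 and IRF9 that binds a DNA element called ISRE, and interferon gamma acts largely through an element called GAS. The genes so induced encode proteins that block viral RNA, protein synthesis or particle release, and others that feed back on the pathway. In brain tissue microglia, astrocytes, endothelial cells and neurons can all make this response.

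The promoters of the members are shown first, because ISRE and GAS are the elements through which interferons are known to act. Whether these elements had a part in the changes of the members was not tested. RefSeq promoter sequences (build GRCr8) were found for 26 of the 34, and Ifit1, Ifit2, Isg15, Mx2, Oas2, Rtp4, Samd9l and Usp18 had no entry. The ISRE core was searched as GAAA, any 2 bases and GAAA, and GAS as TTC, any 3 bases and GAA. Both were searched on both strands, from 250 bases before to 50 bases after the gene's start, and overlapping matches were each counted. The 250 bases before the start are printed 5′ to 3′ on the gene's strand. Capitals mark the ISRE core in the first 6 sequences, which come from 4 members with large rises and from 2 that did not pass the test (Bst2 and Ifi27). In the last one, Irf8, capitals mark GAS.
Ifit3 (chr1:241527076-241527325, + strand): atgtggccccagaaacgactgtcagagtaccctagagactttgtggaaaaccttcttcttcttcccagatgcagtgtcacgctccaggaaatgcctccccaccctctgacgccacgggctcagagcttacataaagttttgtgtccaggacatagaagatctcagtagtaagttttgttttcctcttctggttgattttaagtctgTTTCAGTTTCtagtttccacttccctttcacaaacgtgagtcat
Rsad2 (chr6:48788121-48788370, - strand): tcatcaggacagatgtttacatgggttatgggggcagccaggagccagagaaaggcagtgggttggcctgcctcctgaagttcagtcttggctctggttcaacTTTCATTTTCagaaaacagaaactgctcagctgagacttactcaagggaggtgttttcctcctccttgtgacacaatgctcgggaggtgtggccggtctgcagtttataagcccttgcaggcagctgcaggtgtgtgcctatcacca
Gbp2 (chr2:234005477-234005726, + strand): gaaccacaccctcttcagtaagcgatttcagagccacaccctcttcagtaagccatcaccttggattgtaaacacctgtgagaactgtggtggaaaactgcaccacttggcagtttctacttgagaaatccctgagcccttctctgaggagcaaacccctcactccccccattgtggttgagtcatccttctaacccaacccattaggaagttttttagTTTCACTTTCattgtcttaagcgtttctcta
Irf7 (chr1:205800024-205800273, - strand): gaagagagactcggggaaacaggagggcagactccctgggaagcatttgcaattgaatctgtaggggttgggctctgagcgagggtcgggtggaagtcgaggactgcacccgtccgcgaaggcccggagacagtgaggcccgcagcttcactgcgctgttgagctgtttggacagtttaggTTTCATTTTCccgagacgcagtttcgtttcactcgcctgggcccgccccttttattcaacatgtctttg
Bst2 (chr16:18254968-18255217, - strand): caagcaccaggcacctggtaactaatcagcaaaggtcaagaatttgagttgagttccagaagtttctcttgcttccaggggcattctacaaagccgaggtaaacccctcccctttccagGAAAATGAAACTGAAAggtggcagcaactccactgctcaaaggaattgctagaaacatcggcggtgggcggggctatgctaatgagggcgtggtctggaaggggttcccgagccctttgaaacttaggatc
Ifi27 (chr6:128355062-128355311, + strand): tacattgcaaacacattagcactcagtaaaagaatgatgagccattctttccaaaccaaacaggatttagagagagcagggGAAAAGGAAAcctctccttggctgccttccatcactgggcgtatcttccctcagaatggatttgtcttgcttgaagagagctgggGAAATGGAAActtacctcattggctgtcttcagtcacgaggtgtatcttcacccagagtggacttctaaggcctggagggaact
Irf8 (chr19:65699034-65699283, + strand): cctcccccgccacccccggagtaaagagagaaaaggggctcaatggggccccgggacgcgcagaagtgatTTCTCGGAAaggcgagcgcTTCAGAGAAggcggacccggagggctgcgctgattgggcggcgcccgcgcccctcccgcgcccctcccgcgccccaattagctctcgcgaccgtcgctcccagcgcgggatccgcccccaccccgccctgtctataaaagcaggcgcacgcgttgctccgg

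An ISRE core was present in 14 of the 26 members' windows (53.8%), compared with 3.92% of all 33469 promoter windows of this length. In Bst2 a pair of overlapping cores stood 131 to 116 bases before the start, and a GAS match (TTCCAGGAA) overlapped the first of them. Ifi27 held a core at 169 to 160 and another at 84 to 75 bases before its start, whereas the single core of Gbp2 lay 31 to 22 bases before its start. GAS was matched in 6 of the 26 (23.1%), compared with 8.87% of all windows, and Irf8 held 2 of these matches without an ISRE core. Of the 22 matched members that rose, 11 held an ISRE core, and of the 3 that were tested and not called, 2 did, too few to compare. Neither motif was matched in Mx1, Oasl, Stat2, Ifi35, Herc6, Parp9, Trim25, Cmpk2 or Sp100, which says only that these letters are not in this window. Among tested genes outside the members, an ISRE core was present in 5.83% of 1287 promoters of genes called higher, in 2.17% of 1154 of genes called lower and in 2.59% of 10134 of genes not called. Only the members were taken out of these sets, so other known interferon targets, described below, remain in them.

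Opn3 checked the labels. It had 719, 694, 841, 1006 and 261 normalized counts in shControl replicates 1 to 5 and 289.7, 193, 159, 154 and 145 in shOpn3 replicates 1 to 5, and was lower in shOpn3 in 5 of 5 pairs (limma: log2 change -1.82, SE 0.320, adjusted p = 0.00226). The low control, replicate 5, was under the highest shOpn3 value. Sequencing depth lay between 33402693 and 39958578 reads per shControl sample and between 33158341 and 37263244 per shOpn3 sample. A normalized count is a read count divided by the sample's size factor, so it is close to 1 read.

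Interferon-stimulated genes were higher in nuclei that had received the Opn3 hairpin. Of the 32 tested, 28 rose and none fell at a limma adjusted p under 0.05, while 10.4% of all genes tested rose and 8.48% fell (18.8% in either direction). With the replicate number as a block 29 rose, compared with 15.1% of all genes tested. No member was lower at an unadjusted p under 0.05 either, and none was called lower by edgeR or DESeq2. The median log2 fold change over the 32 was 1.24, compared with -0.02 over all genes tested, and 20 of the 32 rose by at least 1 on the log2 scale, which 4.18% of all genes did. The lowest shOpn3 sample exceeded the highest shControl sample for 23 of the 32 (8.03% of all genes tested), and 28 were higher in all 5 pairs (18.7% of all genes tested). The authors' deposited table gave an adjusted p for 32 members, a different set that holds Oas3 but not Ifit1. Of these, 30 were under 0.05 and all 30 were higher, Oas3 and Bst2 among them (authors' DESeq2 adjusted p = 0.00789 and 0.00901). The limma changes were computed after adding 1 to each normalized count, so they are too small for genes with few reads. The samples were bulk tissue, in which more cells of a type and more RNA per cell cannot be told apart.

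**Figure D1:**
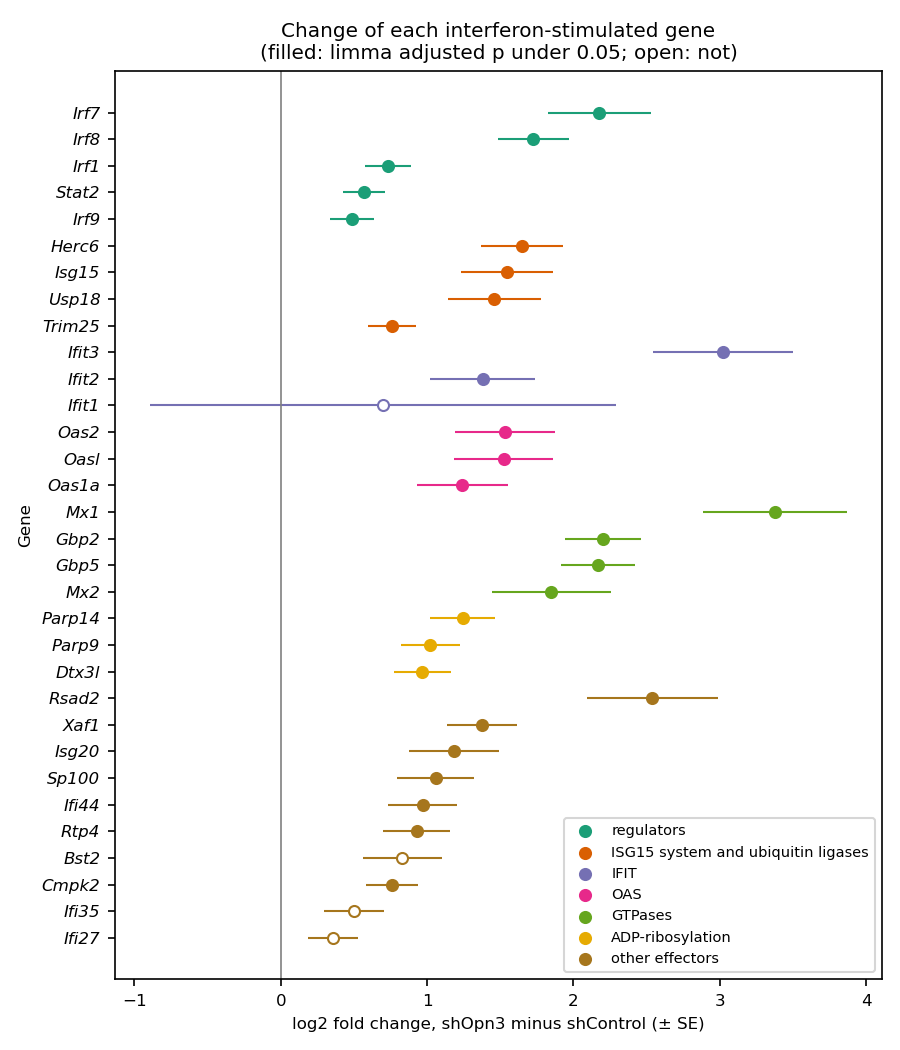
Log2 fold change of each of the 32 tested interferon-stimulated genes (x axis, shOpn3 minus shControl; bars, SE), coloured by role; filled points passed a limma adjusted p of 0.05 and open points did not. All points lie to the right of 0, Mx1 (3.38) and Ifit3 (3.02) farthest, and the 4 open points are Ifit1, Bst2, Ifi35 and Ifi27.

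Among the regulators of the response, all 5 rose, and by unequal amounts. Irf7, the factor that amplifies type I interferon production and is itself induced by interferon, had 304, 211, 289.8, 272 and 274 normalized counts in shControl replicates 1 to 5 and 516, 846, 1428, 2858 and 1494 in shOpn3 replicates 1 to 5. Its control values were close together, and all 5 shOpn3 samples lay above them (limma: log2 change 2.18, SE 0.351, adjusted p = 0.00139). Irf8, which is made mainly by microglia and other myeloid cells in the brain and drives their myeloid programme, had 465, 369, 365, 398 and 446 in shControl and 934, 864, 1848, 2368 and 1265 in shOpn3. The groups did not overlap (limma: log2 change 1.73, SE 0.242, adjusted p = 0.000691). Irf1, an activator of interferon-gamma targets, rose from 501 ± 87.6 to 839 ± 184 (mean ± SD over 5 samples; limma: log2 change 0.73, SE 0.156, adjusted p = 0.00642). The DNA-binding and transactivating subunits of the ISRE complex, Irf9 and Stat2, had the smallest rises of this group. Stat2 rose from 1848 ± 170.1 to 2792 ± 688 (mean ± SD over 5 samples; limma: log2 change 0.57, SE 0.142, adjusted p = 0.0155), and the groups did not overlap. Irf9 rose from 754 ± 36.9 to 1087 ± 296 (mean ± SD over 5 samples; limma: log2 change 0.49, SE 0.152, adjusted p = 0.0417), with 1 shOpn3 sample (replicate 1, 788) below the highest control (794). The call on Irf9 was the least secure of the 28, since leaving out any single shControl sample, or shOpn3 replicate 3, 4 or 5, ended it, with limma adjusted p from 0.0581 to 0.0923.

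The ISG15 system attaches the small ubiquitin-like protein Isg15 to other proteins, and its 4 members all rose with no overlap between the groups. Isg15 itself had 220.2, 269, 370.4, 300.5 and 294 normalized counts in shControl replicates 1 to 5 and 482, 582, 675, 1874 and 1181 in shOpn3 replicates 1 to 5 (limma: log2 change 1.55, SE 0.316, adjusted p = 0.00518). Replicate 4 carried the highest value, and replicates 1 to 3 of shOpn3 lay much closer to the controls than replicates 4 and 5. Herc6, the ligase that conjugates Isg15 in mice, had 366, 418, 581, 466 and 345 in shControl and 761, 938, 1662, 2568 and 1427 in shOpn3 (limma: log2 change 1.65, SE 0.280, adjusted p = 0.00187). Usp18, the protease that removes Isg15 and also damps signalling at the type I receptor, rose from 276 ± 66.7 to 832 ± 443 (mean ± SD over 5 samples; limma: log2 change 1.46, SE 0.318, adjusted p = 0.00737). Trim25, the ubiquitin ligase that aids the RNA sensor RIG-I, rose from 353 ± 20.1 to 618 ± 185 (mean ± SD over 5 samples; limma: log2 change 0.76, SE 0.165, adjusted p = 0.00719).

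The IFIT proteins bind viral RNA and slow translation, and their genes stand close together in the RefSeq gene order. Ifit3 had 102, 125, 278, 172 and 98.1 normalized counts in shControl replicates 1 to 5 and 382, 746, 1771, 2979.9 and 1456 in shOpn3 replicates 1 to 5, so the groups did not overlap (limma: log2 change 3.02, SE 0.479, adjusted p = 0.00125). Its rise by pair was 3.75, 5.96, 6.38, 17.3 and 14.8-fold, smallest in replicate 1 and largest in replicate 4. Ifit2, its direct neighbour, had 702, 898, 1356, 928 and 584 and 982, 1564, 3134, 4647 and 2477 in the same order (limma: log2 change 1.38, SE 0.361, adjusted p = 0.0189). Here the groups overlapped, because shControl replicate 3 exceeded shOpn3 replicate 1, and the call was lost without shOpn3 replicate 3 (limma adjusted p = 0.0543) and without both samples of replicate 4 or of replicate 5 (0.0620 and 0.0848).

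Ifit1 stood apart from the other members. Its normalized counts were 135, 0, 0, 2.81 and 1.05 in shControl replicates 1 to 5 and 292, 1.06, 0, 3.86 and 3.08 in shOpn3 replicates 1 to 5. Both samples with replicate number 1 were thus high, and the other 8 held at most 4 reads each. Within number 1 the shOpn3 nucleus was 2.17-fold higher than the shControl nucleus, while over the groups no change was called (limma: log2 change 0.70, SE 1.59, adjusted p = 0.804). The log2 fold change of Ifit1 was -0.67 without shOpn3 replicate 1, which leaves the high control in. It was 0.60 without both samples of number 1, a value that rests on samples of at most 4 reads each. Ifit1 was higher in shOpn3 in 4 of 5 pairs and lower in 0, but outside number 1 the pairs differed by too few reads to give a direction. A search of the whole table for genes with at least 50 reads in a shControl and a shOpn3 sample and at most 5 in each of the other 8 found 1 gene, Ifit1, over the 5 same-numbered combinations, and 0 over the 20 combinations of different numbers. That search was made after the values of Ifit1 had been seen. IFIT genes have near copies, and reads between them may have been split, so the value is uncertain.

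The 2′-5′ oligoadenylate synthetases make the signal molecule that activates the RNA-cutting enzyme RNase L. All 3 tested members rose with no overlap between the groups. Oas2 had 74.4, 94.6, 67.3, 89 and 59.1 normalized counts in shControl replicates 1 to 5 and 95, 196, 211, 500.4 and 266 in shOpn3 replicates 1 to 5 (limma: log2 change 1.53, SE 0.341, adjusted p = 0.00827). Its lowest shOpn3 value, in replicate 1, lay only just above the highest control, in replicate 2. Oasl, a related gene of the family, had 39.8, 37.6, 48, 47.8 and 42.2 in shControl and 71, 66.9, 143, 281 and 159 in shOpn3 (limma: log2 change 1.52, SE 0.337, adjusted p = 0.00795). Oas1a rose from 151 ± 15.4 to 407 ± 244 (mean ± SD over 5 samples; limma: log2 change 1.24, SE 0.311, adjusted p = 0.0153). Oas3 was too low to be tested, with 3, 0, 0, 3 and 2 reads in the shControl samples and 7, 8, 9, 16 and 4 in the shOpn3 samples, in replicate order. Every control was thus at or under a floor of 3 reads, and every shOpn3 sample was above it. These synthetases also belong to a family of similar genes, and their values are uncertain for the same reason as that of Ifit1.

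The interferon-induced GTPases had the highest median log2 fold change of the role groups (2.19, from 1.85 to 3.38), and none of the 4 overlapped between the groups. Mx1, which traps viral nucleocapsids, had 168, 364, 684, 344 and 270.1 normalized counts in shControl replicates 1 to 5 and 1243, 1928, 4620.3, 8724 and 5000.1 in shOpn3 replicates 1 to 5 (limma: log2 change 3.38, SE 0.491, adjusted p = 0.000811). The controls spread widely too, replicate 3 highest and replicate 1 lowest, but all lay below the lowest shOpn3 sample. By pair, Mx1 was 7.39, 5.29, 6.76, 25.4 and 18.5-fold higher in shOpn3. Its paralogue Mx2 rose from 1727 ± 524 to 7574 ± 6157 (mean ± SD over 5 samples; limma: log2 change 1.85, SE 0.407, adjusted p = 0.00771), and 1 sample, shOpn3 replicate 4 with 17948, stood far above the rest. Gbp2 and Gbp5 encode guanylate-binding proteins, which coat intracellular pathogens and respond strongly to interferon gamma. Gbp2 had 812, 956, 1006, 1081 and 988 in shControl and 2179, 4409.7, 4515, 8252 and 4813 in shOpn3 (limma: log2 change 2.20, SE 0.259, adjusted p = 0.000324). Gbp5 had 239.6, 249, 334, 238 and 237 and 541, 1424, 1415, 1688 and 1143 in the same order (limma: log2 change 2.17, SE 0.255, adjusted p = 0.000324). Both had narrow control ranges, and in both every shOpn3 sample was at least 1.5 times the highest control.

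**Figure D2:**
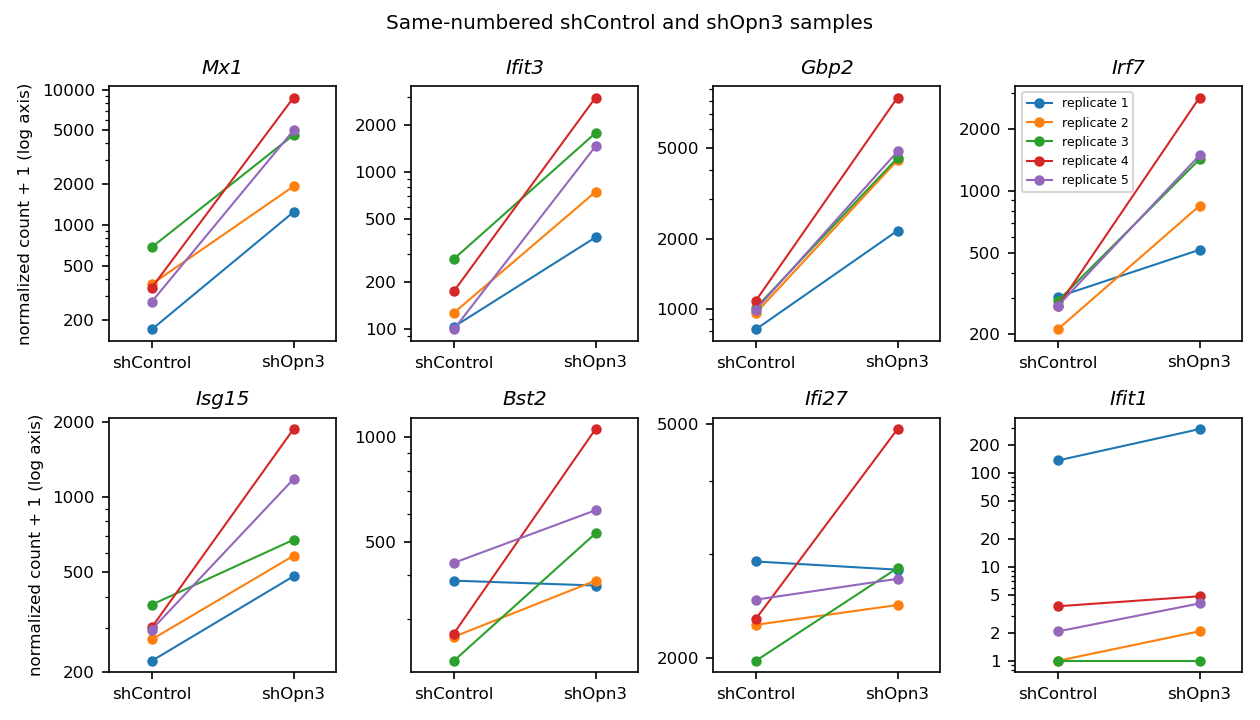
Normalized count + 1 (y axis, log scale, one range per panel) of 8 interferon-stimulated genes in shControl and shOpn3 samples, with lines joining samples of the same replicate number. Mx1, Ifit3, Gbp2, Irf7 and Isg15 rise in all 5 pairs, Bst2 and Ifi27 rise in 4, and Ifit1 is high in both samples of replicate 1 alone.

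Parp9 and Dtx3l form an enzyme pair that adds ADP-ribose to ubiquitin, and Parp14 is a related ADP-ribosyltransferase. The 3 genes are neighbours in the RefSeq gene order, and their rises were close together, from 0.97 to 1.24 on the log2 scale. Parp14 had 744, 969.7, 1155, 1088 and 923 normalized counts in shControl replicates 1 to 5 and 1390.1, 1838, 2876, 3687 and 2298 in shOpn3 replicates 1 to 5 (limma: log2 change 1.24, SE 0.224, adjusted p = 0.00262). Parp9 had 850.2, 963, 1125, 1153 and 1063 and 1413, 1566, 2489.6, 3299 and 2156 in the same order (limma: log2 change 1.02, SE 0.2, adjusted p = 0.00411). Dtx3l rose from 299 ± 54.7 to 598 ± 179 (mean ± SD over 5 samples; limma: log2 change 0.97, SE 0.196, adjusted p = 0.00505). None of the 3 overlapped between the groups. Unlike these neighbours, Rsad2 and Cmpk2, which also stand next to each other, rose by unequal amounts (2.54 and 0.76). So did the neighbours Ifit3 and Ifit2 (3.02 and 1.38). Whether the rises of neighbours differ from each other was not tested.

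Rsad2 encodes viperin, which makes a chain-terminating nucleotide, and Cmpk2 a mitochondrial nucleotide kinase that supplies it. Rsad2 had 396, 445, 832, 362 and 353 normalized counts in shControl replicates 1 to 5 and 1375, 1068, 3010.1, 6802 and 4183 in shOpn3 replicates 1 to 5 (limma: log2 change 2.54, SE 0.446, adjusted p = 0.00223). As with Mx1, shControl replicate 3 was the highest control, yet it remained below all shOpn3 samples. Cmpk2 rose from 1206 ± 198 to 2090.0 ± 594 (mean ± SD over 5 samples; limma: log2 change 0.76, SE 0.180, adjusted p = 0.0114), with overlap between the groups.

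Among the other effectors, Xaf1, a promoter of apoptosis, had 216, 190.3, 206, 209.7 and 215 normalized counts in shControl replicates 1 to 5 and 317, 409, 580.3, 982 and 625 in shOpn3 replicates 1 to 5 (limma: log2 change 1.38, SE 0.239, adjusted p = 0.00211). Its controls spanned a narrow range, which all shOpn3 samples exceeded. Isg20, an exonuclease, was the member with the lowest level among those called, with 24.9 ± 6.84 in shControl and 60.6 ± 28.7 in shOpn3 (mean ± SD over 5 samples; limma: log2 change 1.18, SE 0.308, adjusted p = 0.0186). Sp100, a component of nuclear bodies, rose from 198 ± 51.9 to 428 ± 176 (mean ± SD over 5 samples; limma: log2 change 1.06, SE 0.266, adjusted p = 0.0155). Ifi44 rose from 848 ± 152 to 1747 ± 696 (mean ± SD over 5 samples; limma: log2 change 0.97, SE 0.234, adjusted p = 0.0125), and the groups overlapped for Ifi44 and Sp100. Rtp4 rose from 419 ± 60.7 to 840.1 ± 332 (mean ± SD over 5 samples; limma: log2 change 0.93, SE 0.227, adjusted p = 0.0136), with no overlap.

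The remaining 3 effectors did not pass the test. Bst2, the tetherin that holds budding virus at the cell surface, had 385, 266, 226, 272 and 434 normalized counts in shControl replicates 1 to 5 and 373, 386, 527, 1051 and 614 in shOpn3 replicates 1 to 5 (limma: log2 change 0.83, SE 0.272, adjusted p = 0.0512). It was higher in 4 of 5 pairs, shControl replicates 1 and 5 were the high controls, and its change was called when replicate number entered the fit (limma adjusted p = 0.0374). Ifi35 had 306, 254, 194, 272 and 345 in shControl and 291, 297, 364, 579.6 and 447 in shOpn3 (limma: log2 change 0.50, SE 0.204, adjusted p = 0.11). Ifi27 had 2916, 2275, 1976, 2328 and 2511 and 2824, 2459, 2842, 4897 and 2724 in the same order (limma: log2 change 0.36, SE 0.169, adjusted p = 0.168). For these 3 genes the groups overlapped, replicate 1 was slightly lower in shOpn3 than in shControl, and replicate 4 of shOpn3 was the highest sample.

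One nucleus, shOpn3 replicate 4, had the highest level of nearly every member. Among the shOpn3 samples replicate 4 was the highest for 31 of the 32 tested members (26.1% of all genes tested), the exception being Ifit1, and replicate 1 was the lowest for 25 (24.6% of all genes tested). The median log2 difference between same-numbered samples was 0.75, 0.92, 1.18, 2.06 and 1.41 in pairs 1 to 5, and 29, 32, 31, 32 and 32 of the 32 members were higher in shOpn3. All pairs therefore had the same direction, with the smallest size in pair 1 and the largest in pair 4. Without shOpn3 replicate 4, 27 members were called and the median was 1.01, and without shOpn3 replicate 1, 29 were called and the median was 1.46. Among the controls replicate 3 was the highest for 14 members (28.5% of all genes tested), among them Mx1, Mx2, Rsad2, Ifit2, Ifit3, Isg15 and Usp18. Replicate 1 was the lowest control for 14 members, a count for which no share over all genes was computed. Replicates 1 and 5 were the highest controls for 7 and 3 of the 32 (21.9% and 9.38%). These shares were under those over all genes tested (28.3% and 22.5%). These counts by sample were made after the values had been seen.

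**Figure D3:**
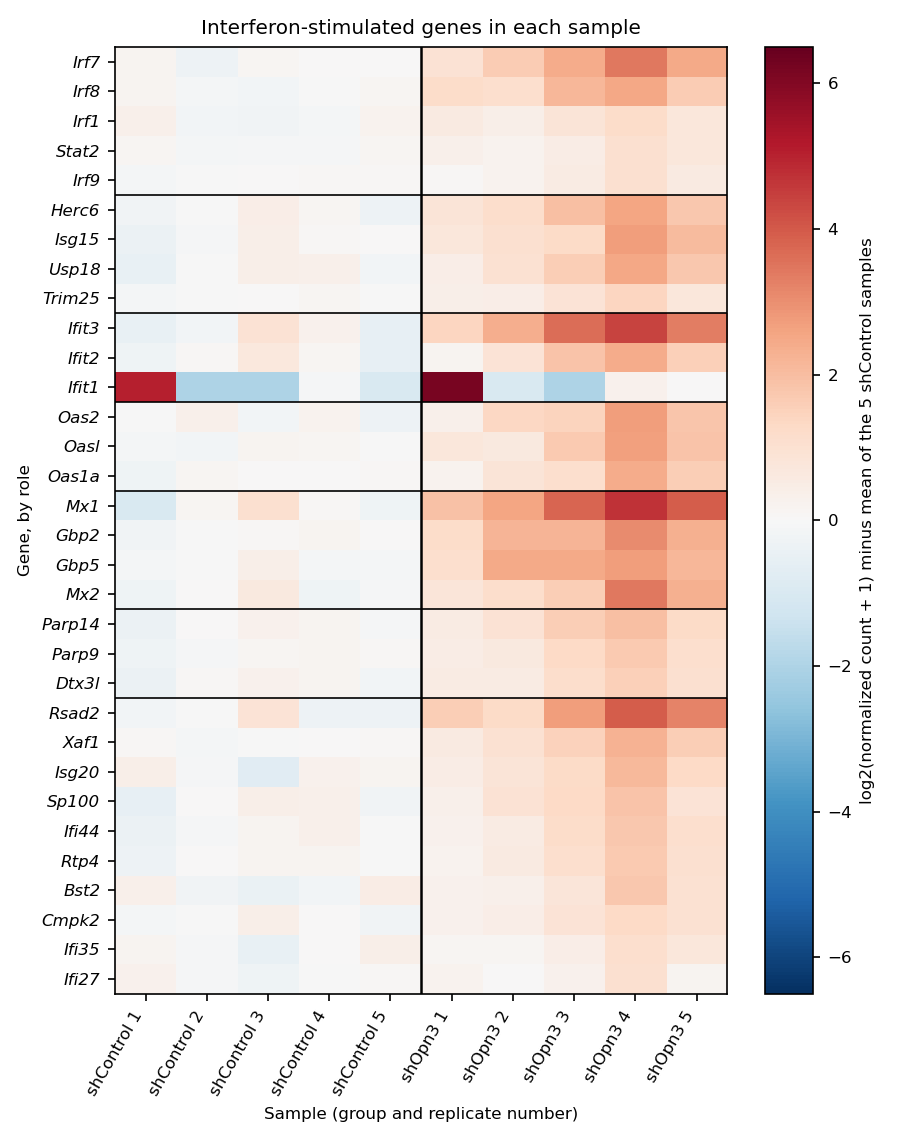
Log2(normalized count + 1) of 32 interferon-stimulated genes (rows, by role) in the 10 samples (columns), each minus its mean over the 5 shControl samples. The shOpn3 columns are higher than the shControl columns in nearly all rows, replicate 4 most and replicate 1 least, while Ifit1 is high in both columns of replicate 1.

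Transcripts of the interferons themselves were barely detected at this depth. The 12 ligand genes listed had at most 2 reads each in any sample, and 10 reads in all shControl and 17 in all shOpn3 libraries together. Ifnb1 had 1 read in shControl replicate 1 and 2 reads in shOpn3 replicate 3. Ifng, the gene of interferon gamma, had 0, 1, 2, 2 and 0 reads in shOpn3 replicates 1 to 5 and 0 in each control. None of these genes reached 3 reads, taken as the floor, in a library, so no fold is given.

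Of the 6 receptor genes 4 rose, and all 6 were called higher with the replicate number as a block. Ifngr1 and Ifngr2 form the receptor of interferon gamma. Ifngr2 rose from 1238 ± 89.4 to 1973 ± 177 (mean ± SD over 5 samples; limma: log2 change 0.67, SE 0.0817, adjusted p = 0.000381), and Ifngr1 from 1761 ± 56.5 to 2816 ± 530.0 (mean ± SD over 5 samples; limma: log2 change 0.66, SE 0.112, adjusted p = 0.00192). Ifnlr1, the specific chain of the interferon lambda receptor, rose from 160.5 ± 22.5 to 336 ± 71.1 (limma: log2 change 1.05, SE 0.157, adjusted p = 0.000931), and its partner Il10rb from 508 ± 40.5 to 728 ± 144 (limma: log2 change 0.50, SE 0.128, adjusted p = 0.0167). The type I receptor chain Ifnar1 had 4177 ± 295 and 4755 ± 432 (mean ± SD over 5 samples; limma: log2 change 0.18, SE 0.0797, adjusted p = 0.131), a difference called when replicate number entered the fit (limma adjusted p = 0.0266). Its partner Ifnar2 had 726 ± 58.6 and 840.4 ± 89.8 (limma: log2 change 0.21, SE 0.0948, adjusted p = 0.150, and 0.0447 with the block). Both were higher in 5 of 5 pairs. Whether the rises of these receptors differ from each other was not tested.

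Of 11 signalling genes 6 rose. Irf5, a myeloid activator of inflammatory genes, rose from 269 ± 59 to 594 ± 154 (mean ± SD over 5 samples; limma: log2 change 1.13, SE 0.194, adjusted p = 0.00201), Irf4 by 0.94 and the kinase Jak2 by 0.35 on the log2 scale (limma: SE 0.191 and 0.0896, adjusted p = 0.00498 and 0.0158). Of 8 tested genes listed as inhibitors 4 rose and 1 fell. Nlrc5 (listed here although best known as an activator of MHC class I genes), the haematopoietic phosphatase Ptpn6 and the feedback inhibitor Socs3 rose by 1.54, 1.26 and 1.31 (limma: SE 0.255, 0.237 and 0.289; adjusted p = 0.00164, 0.00334 and 0.00802). The widely expressed phosphatase Ptpn11 fell from 22488 ± 2517 to 15074 ± 1135 (mean ± SD over 5 samples; limma: log2 change -0.57, SE 0.0893, adjusted p = 0.00114).

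Of 42 further tested interferon targets 32 rose. Cxcl10, a chemokine that draws T cells, had 69.3, 29.5, 71.4, 30.9 and 21.1 normalized counts in shControl replicates 1 to 5 and 363, 668, 906, 1757 and 750.0 in shOpn3 replicates 1 to 5 (limma: log2 change 4.27, SE 0.418, adjusted p = 0.000151). Gbp1, another guanylate-binding protein gene, rose by 3.02, Slfn13, a transfer-RNA-cutting Schlafen protein gene, by 1.84, and Epsti1 by 1.74 on the log2 scale (limma: SE 0.352, 0.203 and 0.259; adjusted p = 0.000321, 0.000275 and 0.000919). For all 4 the groups did not overlap. Over the 67 pathway genes tested outside the members, 46 rose, 1 fell and the median log2 fold change was 0.67.

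Markers of microglia and of T and NK cells moved with the members. Of 11 microglial markers 9 rose, with a median log2 fold change of 0.98, and their summed level was 15588 to 18964 normalized counts in shControl and 24739 to 47527 in shOpn3. Csf1r, Itgam and Tyrobp rose by 1.06, 1.48 and 1.33 on the log2 scale (limma adjusted p = 0.00128, 0.00141 and 0.000809). The lowest and highest shOpn3 samples were replicates 2 and 4 for the median of the microglial markers. They were replicates 1 and 4 for that of the T and NK cell markers and for that of the interferon-stimulated genes. Within the controls the orders differed. Relative to the control mean, the microglial median was 0.16, -0.004, -0.22, -0.24 and 0.23 in replicates 1 to 5. That of the T and NK cell markers was -0.37, 0.13, -0.54, 0.56 and 0.26, and that of the 32 members was -0.17, -0.04, 0.15, 0.07 and -0.03. Of 8 T and NK cell markers 7 rose, with summed levels of 655 to 856 and 1589 to 4508.0. Most of that sum was Cd4, which rat microglia and macrophages also make, while Cd3e, a T cell receptor subunit, had 10.2, 17.3, 13.3, 29 and 23.2 and 28.8, 28.7, 76.6, 98.5 and 46.2 normalized counts in the same order. Of its fellow subunits, Cd3g rose by 1.27 on the log2 scale (limma adjusted p = 0.0400). Cd3d was not called (log2 change 0.63, limma adjusted p = 0.323) and was higher in 4 of 5 pairs. No T or NK marker found in the table was at 0 in any sample. The part of these cells in the rise of the members was not tested.

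Markers of other cell types had fewer calls or fell. Of 6 perivascular macrophage and monocyte markers 1 rose (Mrc1, by 0.54, limma adjusted p = 0.0316), with summed levels of 1835 to 2831 in shControl and 2398 to 4173 in shOpn3. The other 5 were not called, with log2 changes of 0.42 (Cd163), 0.26 (F13a1), 0.04 (Lyve1), -0.25 (S100a9) and -0.61 (S100a8). Of the markers of plasmacytoid dendritic cells, the professional interferon producers, 3 were tested and limma called none (1 at an unadjusted p under 0.05, Bst2). These were Bst2, itself a member, Tcf4 (log2 change 0.14) and Il3ra (-0.22, lower in 4 of 5 pairs), and Siglech was too low to be tested, with 1, 1, 0, 0 and 1 reads in shControl and 0, 1, 4, 13 and 2 in shOpn3 replicates 1 to 5. The limma test called none of the 4 tested markers of B and plasma cells (0 at an unadjusted p under 0.05, and 1, Jchain, called with the block), with a median log2 fold change of 0.39 and summed levels of 60.2 to 105 and 62.7 to 195. Of 8 astrocyte markers 4 rose (Gfap by 1.10, Vim by 0.56, Aqp4 by 0.45 and Gja1 by 0.42), with summed levels of 271855 to 361989 and 323882 to 468158. The other 4 were not called, with log2 changes of 0.21 (Slc1a2), 0.07 (Aldh1l1), -0.04 (S100b) and -0.14 (Slc1a3). The limma test called none of the 5 endothelial markers, none had an unadjusted p under 0.05, and their sums were 13101 to 16410.3 and 12241 to 18713. Of 6 general neuron markers 1 rose and 2 fell, with a median log2 fold change of -0.009. Rbfox3 had a log2 change of 0.62, Elavl4 of -0.57 and Uchl1 of -0.49 (limma adjusted p = 0.00902, 0.0338 and 0.0229). All 7 magnocellular markers fell, from 58593 to 166751 summed counts in shControl to between 11118 and 33522 in shOpn3, as did all 7 oligodendrocyte markers. The nuclei therefore carried the markers of their labelled tissue, at a lower level in shOpn3. These shifts were measured in the same samples as the rise of the members, and their part in it was not tested.

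**Figure D4:**
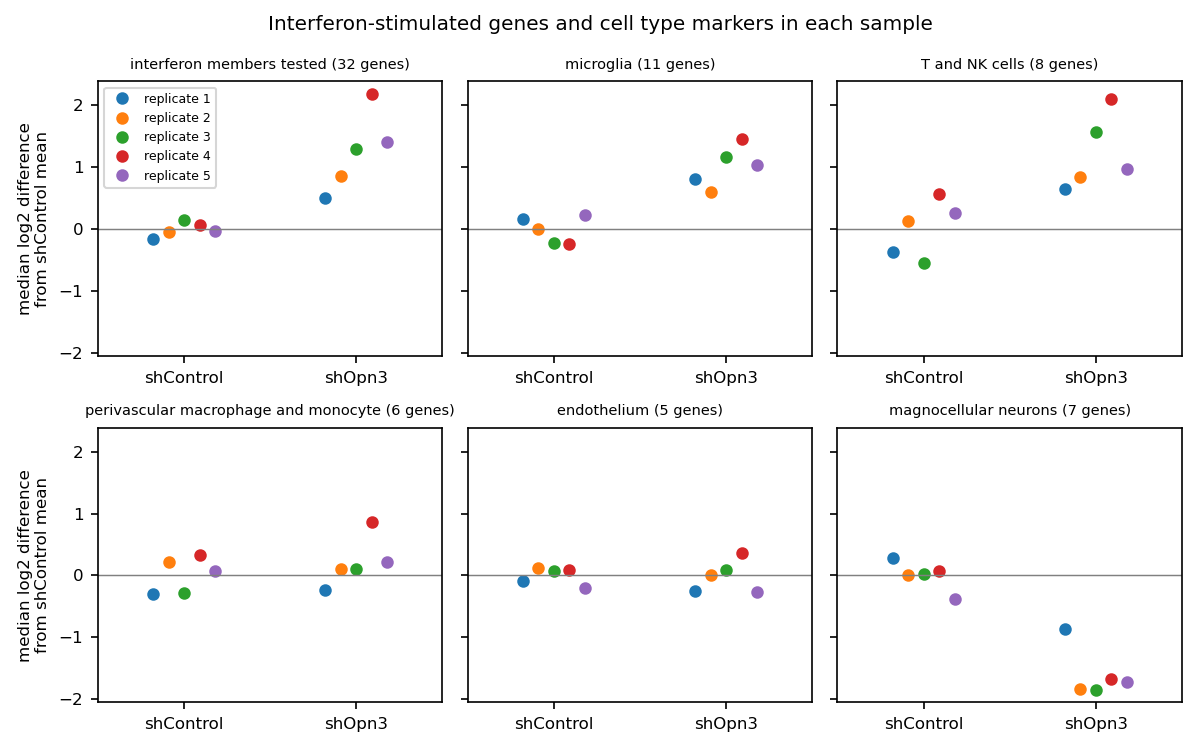
Median log2 difference from the shControl mean (y axis) over the genes of 6 lists in each sample, with 5 points a group coloured by replicate number. The interferon-stimulated genes lie between -0.17 and 0.15 in shControl and between 0.50 and 2.18 in shOpn3, microglial and T and NK cell markers are also higher in shOpn3, endothelial markers overlap, and magnocellular markers are lower.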

How the data were processed

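Gene expression was measured by RNA sequencing of 10 supraoptic nuclei. Per the submitters' processing notes, the tools were FastQC, STAR, featureCounts and DESeq2; their versions, the genome build, the annotation and the use of strand are not given in the sources used here, so overlapping and antisense genes are uncertain. For each sample the authors deposited a signal per gene, read counts divided by 1 size factor per sample. Whole reads could be recovered for 100% of the values in each sample (within 0.001 of a whole number). Per the file headers the table also holds the authors' log2 fold changes, Wald score, p-values and adjusted p-values.

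Values were analysed as log2(normalized count + 1), for genes with a mean of at least 10, with limma 3.58.1 in R 4.3.3 (group as the only term, trend, two-sided, Benjamini-Hochberg over 15597 genes, threshold 0.05). Of these 18.8% were called. No label says that equal numbers mark one rat, but each rat gave a nucleus to both groups, and deviations from the group means correlated in all 5 same-numbered pairs (r from 0.12 to 0.44). Over combinations of different numbers r ran from -0.45 to 0.36. Number 4 had the lowest same-numbered r (0.12). Its shOpn3 sample correlated more with shControl replicate 5 (0.17), and its shControl sample more with shOpn3 replicates 2 and 3 (0.24 and 0.24). Pair 4 is therefore the least secure of the 5. An r over 0.1 does not by itself mark a pair, since combinations of different numbers reached it too, such as shControl replicate 3 with shOpn3 replicate 2 (0.36). By the rule that every same-numbered r be over 0.1, the numbers were taken as pairs, and the replicate number was used as a block in an alternative fit. Otherwise p-values measure the spread between these samples.

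Alternatives were edgeR 4.0.16, DESeq2 1.42.0 and limma-voom on the recovered reads, other pseudocounts, filters and scalings, and leaving out samples. The fits were tested on simulated data with the same spread setting for all genes and no pair effect. That test does not show how they behave for members as variable as Mx2. Values in all samples are given for the 2 members of each role group with the smallest adjusted p and for those not called; those of Mx1 were added for its size. Outside the members, Ifnar1, Ifnb1, Ifng and up to 4 genes of each pathway list with the smallest adjusted p were named; Ifnar2 was added and marker genes were picked from their lists after their values had been seen. The values of 1 further pathway gene are not reported here. The members and lists were chosen with earlier results of these data known. Neighbouring genes are those of the RefSeq table of GRCr8, whose gene coordinates were not used.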

Additional observations from a re-analysis of the deposited data

Results flagged for a closer look

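Each member found, each pathway gene named by the rule and Opn3 was examined in each group for a library standing far apart from its 4 fellows. Of 106 such sets of values 9 held one, and 5.3 would be found if chance alone marked 1 in 20. Ifit1 reached 134.6 normalized counts in shControl replicate 1 (the next library had 2.81) and 291.7 in shOpn3 replicate 1 (the next had 3.86). For Mx2, Rsad2 and Gbp5 it was shControl replicate 3 that lay above its group: at 2630.8 for Mx2 (the next had 1687), at 831.7 for Rsad2 (445) and at 333.7 for Gbp5 (249). Oas1a was low in shControl replicate 1, with 124.4 where the next library had 153. Ifi27 was high in shOpn3 replicate 4, with 4897.3 where the next had 2842. Ifnb1 had 1.019 in shControl replicate 1 (1 read) and 1.869 in shOpn3 replicate 3 (2 reads), and 0 elsewhere, which is under the floor of 3 reads.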

How the results depend on the processing

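The number of members called lay between 20 and 29 and their median log2 fold change between 1.01 and 1.46 over 25 alternatives, including the removal of both samples of one replicate number, which was added after the data had been seen; in that last set the count was lowest without replicate 5 (20). In every alternative 0 members were called lower, and among the called ones at most 1 was not among the 28. Of 797 values for single members, 756 kept their direction and side of the threshold, 30 lost the call (14 of them Irf9), 9 gained it (all Bst2) and 2 changed sign, both in Ifit1: -0.07 under quantile normalization and -0.67 without shOpn3 replicate 1. With samples left out its log2 fold change ranged from -0.67 to 1.97. Over all genes, 2940 were called; on the recovered reads edgeR called 3025, DESeq2 3705 and limma-voom 2921; with the replicate block 4726 were, and with samples left out between 1604 and 3056. The block changed the call of Bst2 alone among the 32 members and of Ifnar1 and Ifnar2 among the named pathway genes; 54 pathway genes were called with it and 47 without. Of the pathway genes outside the members, 31 (without both samples of replicate 3) to 50 were called with samples left out. Scaling to the total raised the share of higher calls over all genes from 55.0% to 71.9%, with a median log2 fold change of all genes of 0.05, and left the members' median at 1.31. Ifit1 and Isg20 fell under a minimum mean of 50 and have no value there, and DESeq2 gave Ifit1 no adjusted p. Depth limits the interferon genes and Oas3.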
